A study of Mus musculus with 2 samples.

Results

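The genes described here are 40 genes of sugar breakdown and of the response to low oxygen, chosen by symbol and grouped by role. They comprise 3 glucose transporters, 18 glycolytic enzymes and regulators, 5 genes that decide the fate of pyruvate, 4 pentose phosphate genes and 10 hypoxia response genes. Every probe set annotated to 1 of these genes alone was taken, which gave 76 of the 22690 probe sets on the array, for 37 of the 40 genes. Gpi1, Eno1 and G6pdx were not analysed here. RNA came from mouse uterus at day 8 of pregnancy, from the wall between implantation sites. The control group and the Cbs null group, which is homozygous for a deficiency of cystathionine beta-synthase, were represented by 1 Affymetrix array each. Females of both groups were 4 months old and of the genetic background C57Bl/6J X OLA129. The labels give neither the Cbs genotype of the controls nor the kind of Cbs allele, and they do not state how many animals each sample holds.

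Glycolysis splits glucose into pyruvate in the cytosol, and pyruvate is then either reduced to lactate or passed to the mitochondrion for oxidation. The pentose phosphate pathway branches off after the first phosphorylation of glucose and supplies NADPH and ribose for nucleotides. When oxygen is scarce, the alpha subunits of the hypoxia-inducible factors (HIF) escape hydroxylation and breakdown, and HIF raises transcription of glucose transporters, most glycolytic enzymes and further genes such as Bnip3 and Car9. In the pregnant rodent uterus, decidualizing stromal cells are known for heavy use of glucose and release of lactate.

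Values are signals in linear intensity units as deposited. A floor of 43.2, the 40th percentile of the pooled signals, was applied, and a gene counted as measured when its probe set of highest mean signal exceeded that floor on at least 1 array. With 1 array a group no replicate spread and no test exists, and each difference describes these arrays only. Across 2759 genes, paired probe sets of a gene gave an SD of 0.22 for a log2 ratio, which covers measurement within the arrays and not variation between animals. The overall scale was alike, with median signals of 74.55 for control and 75.6 for Cbs null and 3-prime to 5-prime ratios of 1.31 and 1.25 for Gapdh and of 1.95 and 2.05 for Actb. Cbs itself, in its brighter probe set, read 79.8 for control and, just below the floor, 42.6 for Cbs null. Its other probe set read 39.8 and 25.1, below the floor in both samples. Of 6 genes taken as marks of uterine identity, Hoxa10 read 1188 and 1359 and Hoxa11 read 1082 and 1077, Msx1 read 137 and 224.5, 1.64-fold higher, while Esr1 lay below the floor in both samples and Pgr in the Cbs null sample.

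Glycolytic enzyme and pentose phosphate genes had slightly lower signals in the Cbs null sample, whereas the hypoxia response genes were split. Among 15 measured glycolytic enzyme genes 13 were lower, and all 3 measured pentose phosphate genes were lower, against 46.5% of all measured genes. Of 9 measured hypoxia response genes 6 were higher, against 53.3% of all measured genes, led by Car12 and Ddit4, and 3 were lower, led by P4ha2. The glucose transporter genes went opposite ways, with Slc2a1 and Slc2a4 lower and Slc2a3 higher. No measured member was 2-fold higher or 2-fold lower, sizes that 0.797% and 0.714% of all measured genes reached.

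Of the 40 genes, 35 were measured, 34 of them on both arrays, and Pgam2 and Car9 lay below the floor in both samples. The measured members had a median log2 ratio (Cbs null over control) of -0.14, beside 0.02 over all 8408 measured genes. In all, 24 members were lower and 11 higher. At least 1.5-fold higher were 5 members, Car12, Ddit4, Slc2a3, Aldoc and Ndrg1, against 3.63% of all measured genes. At least 1.5-fold lower were 3 members, Slc2a1, Slc2a4 and P4ha2, against 3.40%. Aldoc counted as measured only through its signal in the Cbs null sample, so its direction was fixed by the floor. Without it, 4 of the 34 members above the floor on both arrays were at least 1.5-fold higher, against 3.27% of such genes. When probe sets of each gene were averaged, only Car12 and Ddit4 stayed at least 1.5-fold higher, 2 members in place of 5. The same 2 stayed when probe sets with an _s_at, _x_at or _a_at suffix were left out. Many members are strongly expressed, and of 16 with a mean signal of at least 500 there were 13 lower, against 47.6% of the 1768 genes with a signal that high. The remaining bright members, Slc2a3, Bnip3 and Ndrg1, were higher.

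**Figure D1:**
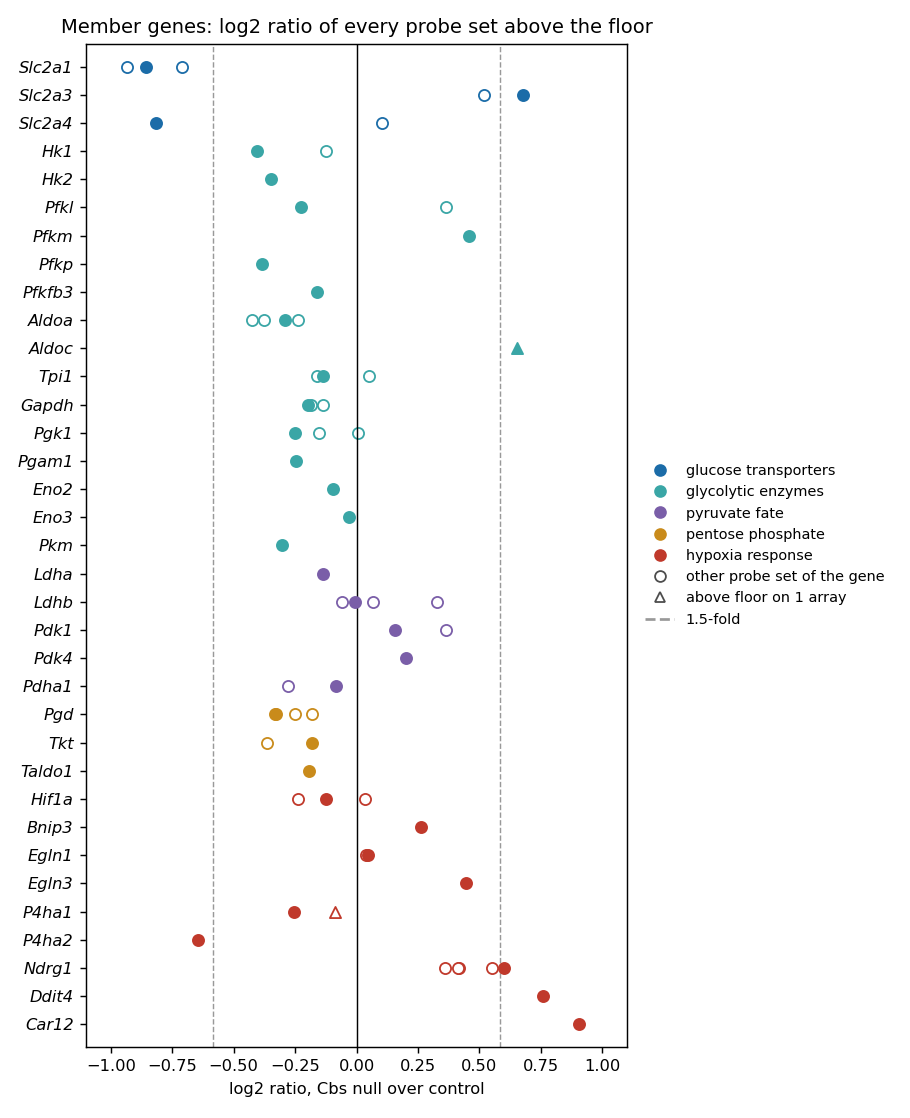
Log2 ratio of Cbs null over control for the 35 measured members, by role; filled symbols are the probe set of highest signal, open symbols the gene's other probe sets above the floor, triangles those above it on 1 array only, and dashed lines mark 1.5-fold. Glycolytic enzyme and pentose phosphate genes lie mostly just left of 0, while transporter and hypoxia response genes reach -0.86 and 0.90 in their brightest probe sets.

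**Figure D2:**
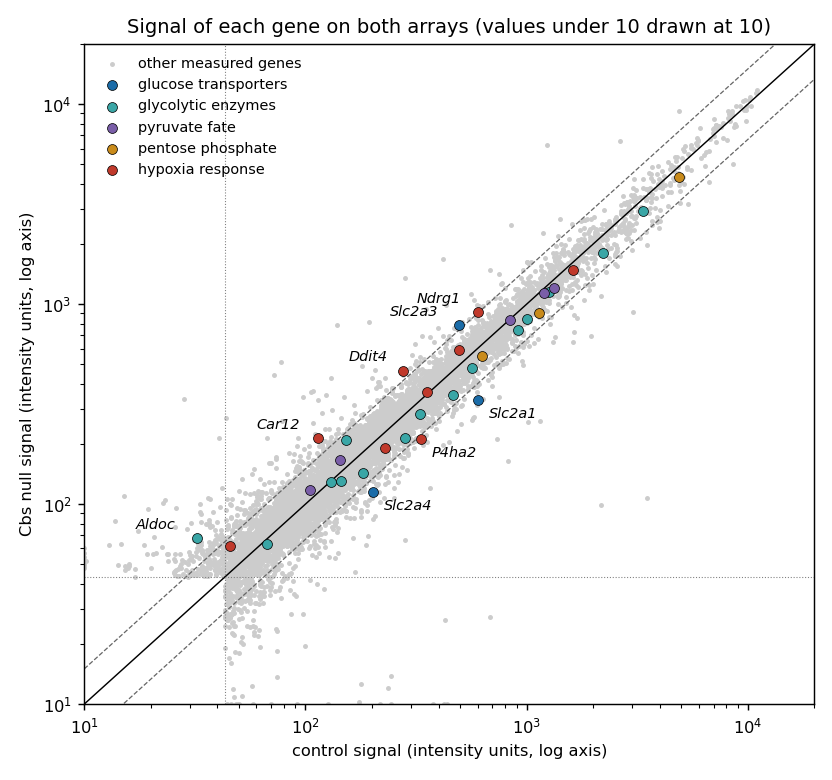
Signal of each measured gene in the control sample (x axis) and the Cbs null sample (y axis), both in intensity units on log axes, with members coloured by role and other genes in grey; the solid line marks equal signal, dashed lines 1.5-fold and dotted lines the floor of 43.2, and values under 10 are drawn at 10. The 8 labelled members lie outside the dashed lines, and the other 27 lie between them.

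The core letters of the hypoxia response element, to which HIF binds, are ACGTG or, in a variant form, GCGTG, and the promoters of the members were searched for them because many members are known HIF targets. The RefSeq promoter table (build GRCm38.p6) holds windows from 250 bases before to 50 bases after a gene's start for 37 of the 40 genes, all except Slc2a3, Slc2a4 and Ndrg1, with 51 windows in all. Both strands were read, and the palindrome CACGTG, also known as an E-box, counts as a match to the first core. The core ACGTG was present in 24 of 51 member windows (47.1%), against 19.6% of all 32851 windows, and GCGTG in 30 (58.8%), against 32.4%. CACGTG alone was found in 9.80% of member windows and 7.15% of all windows. By role, ACGTG occurred in 8 of 9 windows of hypoxia response genes, in 13 of 29 of glycolytic enzyme genes, in 1 of 7 of pyruvate fate genes and in 1 of 5 of pentose phosphate genes. In the same order, GCGTG occurred in 5 of 9, 14 of 29, 6 of 7 and 4 of 5 windows. Either core occurred in 8 of 9, 21 of 29, 6 of 7 and 4 of 5, against 43.8% of all windows. The hypoxia response gene with neither core, Car12, had the highest log2 ratio of all members. Among measured members with a window, ACGTG was found in 6 of 9 genes that were higher in the Cbs null sample and in 13 of 23 that were lower. Over all genes with a window it was found in 5886 of 27025. Either core was found in 8 of 9 higher and 21 of 23 lower members, and in 12628 of the 27025 genes. A match describes letters in the window and is not evidence of binding.

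The windows below are those of the 5 members at least 1.5-fold apart that the table holds, followed by Pgk1 and Ldha, textbook HIF targets of glycolysis. Each line gives the 200 bases before the gene's start, on the gene's own strand, with matches to either core in capitals, which read CACGT for the first core and CACGC for the second where the match is on the other strand. Aldoc and Ldha have further windows, of which the first is shown.
Slc2a1, chr4:119108545-119108744, plus strand: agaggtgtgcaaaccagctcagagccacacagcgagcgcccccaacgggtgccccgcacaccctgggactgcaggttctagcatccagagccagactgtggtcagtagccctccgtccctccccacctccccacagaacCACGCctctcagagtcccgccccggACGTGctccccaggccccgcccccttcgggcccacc
Aldoc, chr11:78322873-78323072, plus strand: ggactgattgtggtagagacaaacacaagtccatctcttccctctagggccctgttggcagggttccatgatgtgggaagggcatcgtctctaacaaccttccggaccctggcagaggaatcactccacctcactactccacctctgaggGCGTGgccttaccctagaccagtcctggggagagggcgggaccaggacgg
P4ha2, chr11:54100724-54100923, plus strand: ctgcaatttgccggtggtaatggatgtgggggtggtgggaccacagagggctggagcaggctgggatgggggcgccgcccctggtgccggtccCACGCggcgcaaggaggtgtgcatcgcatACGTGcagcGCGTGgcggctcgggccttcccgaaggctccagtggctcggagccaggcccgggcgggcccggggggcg
Ddit4, chr10:59951771-59951970, minus strand: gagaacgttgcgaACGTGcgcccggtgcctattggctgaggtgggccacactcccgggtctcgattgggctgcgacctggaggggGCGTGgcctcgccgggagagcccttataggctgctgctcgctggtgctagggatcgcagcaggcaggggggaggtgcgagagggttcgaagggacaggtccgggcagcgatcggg
Car12, chr9:66713486-66713685, plus strand: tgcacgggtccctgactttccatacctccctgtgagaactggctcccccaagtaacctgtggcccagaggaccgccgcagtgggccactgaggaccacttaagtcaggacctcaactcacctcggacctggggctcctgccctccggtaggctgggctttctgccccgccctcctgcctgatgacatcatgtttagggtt
Pgk1, chrX:106186900-106187099, plus strand: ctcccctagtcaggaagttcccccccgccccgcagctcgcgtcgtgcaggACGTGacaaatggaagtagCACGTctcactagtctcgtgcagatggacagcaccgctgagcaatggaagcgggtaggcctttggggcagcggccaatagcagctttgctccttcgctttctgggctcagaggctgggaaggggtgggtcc
Ldha, chr7:46845604-46845803, plus strand: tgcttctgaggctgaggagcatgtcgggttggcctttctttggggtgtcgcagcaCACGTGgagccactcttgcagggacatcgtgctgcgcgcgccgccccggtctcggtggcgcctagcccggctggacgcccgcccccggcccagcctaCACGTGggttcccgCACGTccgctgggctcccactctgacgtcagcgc
Slc2a1, which was lower, carries ACGTG 36 bases before its start and the reverse complement of GCGTG 61 bases before it. P4ha2, also lower, has ACGTG 78 bases before its start and GCGTG 69 bases before it. Ddit4, which was higher, has ACGTG 187 bases and GCGTG 115 bases before its start. Car12, which was higher as well, shows neither in these bases. Members with the same core letters thus lay on both sides of 0.

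Glucose enters the cell through facilitative transporters. Slc2a1 encodes GLUT1, the broadly expressed basal transporter and a HIF target. Its brightest probe set read 601.6 in control tissue and 332 in Cbs null tissue, 1.81-fold lower. The others read 421 and 221 (1.91-fold lower) and 204 and 125 (1.64-fold lower). All 3 probe sets of Slc2a1 thus differed by 1.5-fold or more, which no other member showed with more than 1 probe set.

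Slc2a3 encodes GLUT3, a transporter of high affinity that is prominent in neurons, leukocytes and trophoblast. Its brightest probe set read 494 in control tissue and 791 in Cbs null tissue, 1.60-fold higher. A further probe set read 205 and 293, 1.43-fold higher, and the other two lay below the floor in both samples. Both informative probe sets carry a suffix for possible cross-matching, so without such probe sets Slc2a3 was not measured. Slc2a4 encodes GLUT4, the insulin-responsive transporter of muscle and fat. Its brighter probe set read 203 and 115, 1.76-fold lower, while its dimmer one read 43.7 and 46.9, hardly above the floor and 1.07-fold higher. With its probe sets averaged, the log2 ratio of Slc2a4 was -0.36 in place of -0.82.

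Cell type markers differed along with the transporters. In a tissue piece, fewer cells of a type and less RNA per cell cannot be told apart. All 16 smooth muscle markers measured were lower in the Cbs null sample, with a summed signal over 17 genes of 72858 in control tissue and 59359 in Cbs null tissue. All 9 measured adipocyte markers were lower as well, with sums over 10 genes of 19131 and 15397, and only Lep lay below the floor on both arrays. Of 15 skeletal muscle markers 4 were measured, 3 lower and 1 higher, with summed signals of 1756 and 939.8. Acta1, which made up most of these sums, read 1313.5 and 646 and Tnni2 227 and 107, each more than 2-fold lower. Tnnt3 and Casq1 exceeded the floor on 1 array only. Ckm, Mylpf, Myh1, Myh2 and Myh4 lay below the floor in both samples. All 16 macrophage and dendritic cell markers were higher, with sums of 6371 and 9165. Of 5 members taken as muscle-type genes (Slc2a4, Pfkm, Pgam2, Eno3 and Pdk4) 4 were measured, 2 higher and 2 lower. Their median log2 ratio was 0.09. The part of the cell type markers in the transporter values was not tested.

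**Figure D3:**
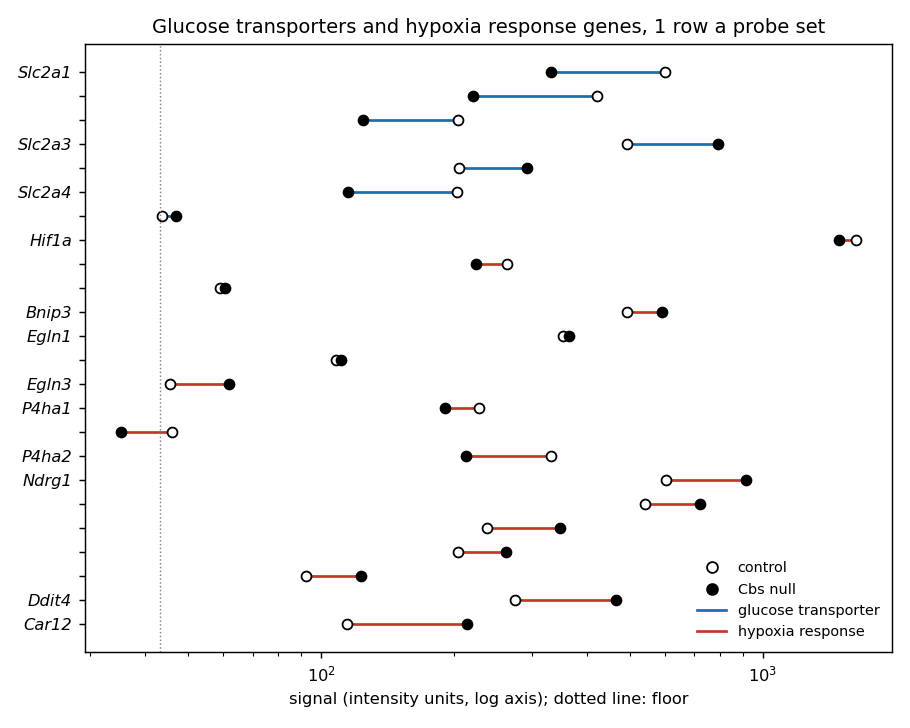
Signal in the control sample (open circles) and the Cbs null sample (filled circles) for each probe set above the floor of the glucose transporter and hypoxia response genes, in intensity units on a log axis; a gene's name stands at its brightest probe set and its other probe sets follow below. All 3 probe sets of Slc2a1 run to lower and all 5 of Ndrg1 to higher signals in the Cbs null sample, while the pair of Slc2a4 goes opposite ways.

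The glycolytic enzyme genes had a median log2 ratio of -0.23 over 15 measured genes, from -0.41 for Hk1 to 0.65 for Aldoc, and 1 of them, Aldoc, reached 1.5-fold. Hexokinases trap glucose by phosphorylating it. Hk1, the broadly expressed form, read 465 in control tissue and 351 in Cbs null tissue, a log2 ratio of -0.41, with a second probe set at -0.13. Hk2, the form that HIF and insulin induce, read 182 and 143, a log2 ratio of -0.35. Both hexokinase genes were thus lower by less than 1.5-fold.

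Phosphofructokinase commits sugar to glycolysis, and its subunits did not go 1 way. Pfkp, the platelet-type subunit, read 280.5 and 215, a log2 ratio of -0.38. Pfkm, the muscle-type subunit, read 152 and 209, a log2 ratio of 0.46 and the highest among glycolytic enzyme genes above the floor on both arrays. Pfkl, the liver-type subunit, read 329 and 281.5 in its brighter probe set (-0.23) but 153 and 197 in the other (0.36), so its direction is not settled. Pfkfb3, which makes the allosteric activator of phosphofructokinase, read 145 and 129.8, a log2 ratio of -0.16.

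Aldolase cleaves the 6-carbon sugar. Aldoa, its main form, was lower in all 4 of its probe sets, with log2 ratios from -0.43 to -0.24. All 4 carry a suffix for possible cross-matching. The brightest of them read 2209.7 in control tissue and 1803 in Cbs null tissue. Aldoc, the brain-type form, read 32.4, below the floor, and 68.0, at least 1.57-fold higher, and its other probe set was below the floor in both samples. The lower steps of the pathway were close to each other. Gapdh, often used as a reference gene, had log2 ratios from -0.20 to -0.14 in its 3 probe sets, all of them array controls for the ends and the middle of the transcript. A probe set that Gapdh shares with related sequences read 4549 and 4144, a log2 ratio of -0.13.

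Tpi1 (triosephosphate isomerase) had a log2 ratio of -0.14 and Pgk1 (phosphoglycerate kinase) of -0.25 in the brightest probe sets. Each of these genes had 1 further probe set just above 0, at 0.05 for Tpi1 and 0.01 for Pgk1. Pgam1, the non-muscle phosphoglycerate mutase, read 568 and 479 (-0.25). The pyruvate kinase gene Pkm read 912 and 739, a log2 ratio of -0.30. Of the enolases, Eno2 (neuronal type) stood at -0.10 and Eno3 (muscle type) at -0.03. Pgam2, the muscle mutase, read 2.2 and 3.1, both far below the floor.

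These differences were small. Single ratios of -0.1 to -0.4 lie within 2 technical SDs of 0.22 and rest on 1 array a group. The description turns on how many genes lay on the same side. Those genes were read from the same 2 arrays and are not replicates of the genotype. The count also takes in Eno3 at -0.03 and Pfkl, whose probe sets disagree. Glycolytic enzyme and transporter genes together had a median of -0.24 over 18 measured genes, with 15 lower and 3 higher. The median over the same genes was -0.15 when each gene took the mean of its probe sets.

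Downstream of pyruvate, no direction was shared. The 5 genes had a median log2 ratio of -0.0045 and spanned -0.13 to 0.20. Leaving out probe sets with an _s_at, _x_at or _a_at suffix kept 3 genes, with a median of 0.16. Ldha, the lactate dehydrogenase subunit that HIF induces, read 1324 in control tissue and 1206 in Cbs null tissue (-0.13). Ldhb, the heart-type subunit, read 838 and 836 in its brightest probe set, and its 4 probe sets ran from -0.06 to 0.33. Pdha1, the catalytic alpha subunit of pyruvate dehydrogenase, read 1201 and 1132 (-0.09) and 244 and 201 (-0.28). Pdk1 and Pdk4 encode kinases that switch off pyruvate dehydrogenase. Pdk1, a HIF target, read 105 and 117 (0.16), with 90.9 and 117 (0.36) in a second probe set, and Pdk4, induced by fasting and glucocorticoids, read 144 and 165 (0.20).

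The pentose phosphate genes all lay on 1 side, with a median log2 ratio of -0.19 over 3 genes and none at 1.5-fold. Without probe sets that carry an _s_at, _x_at or _a_at suffix only Tkt remained, at -0.36. Pgd, the second NADPH-yielding dehydrogenase of the pathway, was lower in all 4 probe sets, from 1133 to 899 in the brightest (-0.33) and at -0.18 to -0.33 in the others. Tkt, transketolase, read 4909 and 4326 (-0.18) and 1088 and 845 (-0.36). Taldo1, transaldolase, read 629.8 and 551 (-0.19). All 7 probe sets of these genes were lower in the Cbs null sample. Their ratios overlapped those of the glycolytic enzyme genes, so the pentose phosphate set did not stand apart from them.

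The hypoxia response genes had a median log2 ratio of 0.26 over 9 measured genes, beside -0.24 for the glycolytic enzyme and transporter genes, and ranged from -0.64 to 0.90. A floor raised to the 60th percentile left 8 genes and a median of 0.15. The order from the highest was Car12, Ddit4, Ndrg1, Egln3, Bnip3, Egln1, Hif1a, P4ha1 and P4ha2. Hif1a, the oxygen-regulated HIF subunit whose abundance is set mainly at the protein level, read 1623 in control tissue and 1490.2 in Cbs null tissue (-0.12). Its other probe sets above the floor stood at -0.24 and 0.04. Egln1, the main prolyl hydroxylase that marks HIF for breakdown, read 354 and 365 (0.04) and 108 and 111 (0.04). Egln3, a hydroxylase that HIF itself induces, read 45.6 and 62.0 (0.44), close to the floor, with a second probe set below it.

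Within the hypoxia response group, Car12 and Ddit4 differed most. Car12 encodes a membrane carbonic anhydrase of epithelia that helps set pH outside the cell. Its only probe set read 114 in control tissue and 214 in Cbs null tissue, 1.87-fold higher and the highest ratio of any member. Ddit4 encodes REDD1, an inhibitor of the mTOR pathway that hypoxia, glucocorticoids and energy stress induce. Its only probe set read 275 and 466, 1.69-fold higher. Each of these values rests on 1 probe set.

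Ndrg1 is a stress-responsive gene of epithelial differentiation. Its brightest probe set read 603 and 914, 1.52-fold higher. The other 4 were higher by 1.28-fold to 1.46-fold, so all 5 went 1 way while 1 of them passed 1.5-fold. Bnip3, a mitophagy receptor and classical HIF target, read 492 and 590.2, 1.20-fold higher. Car9, another classical HIF target, read 18.6 and 30.6, both below the floor, and gives no ratio.

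The prolyl 4-hydroxylases P4ha1 and P4ha2, which modify collagen and are HIF targets, were lower. P4ha2 read 332 in control tissue and 212.5 in Cbs null tissue, 1.56-fold lower. P4ha1 read 228 and 191 in its brighter probe set, 1.19-fold lower, and its other probe set read 45.9 and, below the floor, 35.3.

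Epithelial markers were higher along with Car12, Ddit4 and Ndrg1. All 16 epithelial markers, like the other lists chosen with earlier results of these data known, were higher in the Cbs null sample. Their summed signal was 5577 in control tissue and 13337 in Cbs null tissue, of which Spink1 alone gave 1234 and 6219. Calb1, Muc1 and Cldn4 lay below the floor in the control sample only, so their direction was fixed by the floor. Endothelial markers, at sums of 3603 and 3659.5, had 5 of 12 genes higher and 7 lower. Of 14 decidual markers 11 were measured, 4 higher and 7 lower, with sums over 13 genes of 8289 and 6052. No decidual marker was 1.5-fold higher, and 3 were more than 2-fold lower, led by Tdo2, which read 685 in control tissue and 27.4, below the floor, in Cbs null tissue, at least 15.9-fold lower. Prl8a2, a prolactin-family gene of the decidua, read 424 and 5.8, at least 9.82-fold lower. Tdo2, Prl8a2 and Alpl exceeded the floor on the control array alone, so the floor fixed their direction as lower. Fst, which exceeded it on both arrays, read 1011.7 in control tissue and 256.2 in Cbs null tissue, 3.95-fold lower. Of the 7 trophoblast and embryo markers on the array none exceeded the floor. The part of these cell types in the hypoxia response and glycolytic values was not tested.

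**Figure D4:**
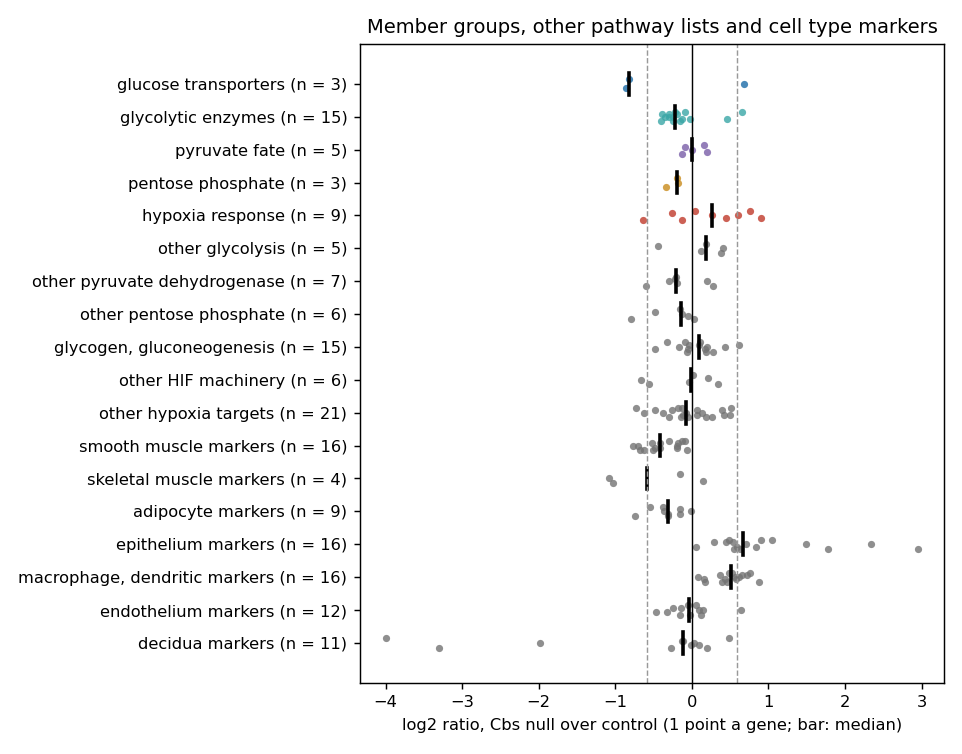
Log2 ratio of Cbs null over control for each measured gene of the member groups (coloured), of other pathway lists and of cell type markers (grey), with a bar at each median and dashed lines at 1.5-fold. Epithelial (median 0.67) and macrophage and dendritic cell markers (0.50) lie right of 0. Smooth muscle markers (-0.41) lie left of it, as do 3 of only 4 measured skeletal muscle markers (median -0.59). Each of these medians is displaced more widely than that of the glycolytic enzyme genes (-0.23). Decidual markers reach -3.99, with signals under the floor raised to it.

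Other genes of the same pathways were examined by list. Of 25 further genes of glucose uptake and glycolysis 5 were measured, with a median log2 ratio of 0.18, and none reached 1.5-fold. The highest was Adpgk, the ADP-dependent glucokinase, at 0.41, from 46.0 to 61.2, and a second probe set of it went the other way at -0.44. The lowest was Slc16a1, the monocarboxylate transporter that carries lactate, which read 387 and 284 (-0.44). The direction of this median depended on the settings, with -0.16 over 2 genes when the floor was set at the 60th percentile.

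Around pyruvate dehydrogenase, 5 of 7 measured genes were lower and the median log2 ratio was -0.20. The subunit genes Pdhb (-0.20), Dlat (-0.19) and Dld (-0.23) were lower. Mpc1, a subunit of the carrier that brings pyruvate into the mitochondrion, read 818 and 540.4, 1.51-fold lower and the only gene of this list past 1.5-fold. The kinase genes Pdk2 (0.28) and Pdk3 (0.20) were higher. The ratios of Pdhb, Dlat, Dld, Pdk2 and Pdk3 were each under 1.5-fold.

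Of 6 further measured pentose phosphate and ribose phosphate genes, 5 were lower and the median log2 ratio was -0.14. Prps2, a phosphoribosyl pyrophosphate synthetase that feeds nucleotide synthesis, read 116 and 66.5, 1.74-fold lower. A second probe set of Prps2 read 134 and 43.5, just above the floor, 3.07-fold lower. Prps1, the related synthetase, read 289 and 206 (-0.48). The genes of the pentose phosphate steps proper, Pgls, Rpia, Rpe and H6pd, lay between -0.15 and 0.03 in their brightest probe sets. A second probe set of Rpe read 145 and 115.5 (-0.33).

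Glycogen and gluconeogenesis genes were divided, with 8 of 15 higher and a median log2 ratio of 0.09. The median was -0.041 without probe sets that carry an _s_at, _x_at or _a_at suffix. Pck1, the cytosolic phosphoenolpyruvate carboxykinase, read 84.7 and 130.2, 1.54-fold higher, and its second probe set was below the floor. The lowest was the glycogen synthase gene Gys1 at -0.48, from 98.9 to 71.0.

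In the list of HIF machinery, 3 of 6 measured genes were higher and 3 lower. Of the lower ones, Epas1 read 63.6 and, below the floor, 35.5, at least 1.47-fold lower. It counted as measured only through the control sample, so its direction was fixed by the floor. Hif3a, an alpha subunit that can restrain HIF activity, read 149 and 93.9, 1.59-fold lower in the only one of its 3 probe sets above the floor. The highest was Siah1a, a ubiquitin ligase that acts on prolyl hydroxylases, at 0.34. Arnt, the partner of the alpha subunits, and Vhl, which directs them to breakdown, lay below the floor in both samples.

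Of 30 further hypoxia targets 21 were measured, 9 higher and 12 lower, with a median log2 ratio of -0.08, or -0.020 with probe sets averaged. Lox, which cross-links collagen and elastin, read 1021 and 617, 1.65-fold lower, and Plod2, a collagen lysyl hydroxylase, read 1006 and 654, 1.54-fold lower. A second probe set was lower for each, at -0.76 for Lox and -0.53 for Plod2. Below Lox and Plod2 in size, the lowest were Gys1 at -0.48 and Fam162a at -0.37. Kdm3a, a histone demethylase that HIF induces, was the highest at 0.50, from 270.3 to 383.5, and none of the 21 reached 1.5-fold higher. Vegfa and Adm, textbook HIF targets, stood at -0.14 and 0.13. A dimmer probe set of Vegfa went the other way, from 38, below the floor, to 53.5, at least 0.31. The further hypoxia targets therefore lay on both sides of 0, as the hypoxia response genes did. Their median of -0.08 did not share the higher median of those genes, 0.26.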

How the data were processed

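Total RNA was labelled as biotinylated cRNA from 2 microg, per the labels' protocols, and hybridised to 1 array for each genotype. The authors deposited 1 linear intensity per probe set and array. The software GCOS 1.4 comes from the submitters' processing notes. How probe signals were summarised and scaled is not given in the sources used here. With 2% trimmed at each end, both arrays had a mean of 199.98, so values were used as deposited. Each difference is therefore relative to an equal total signal. The number of arrays limits the precision.

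Of 22690 probe sets, the platform annotation gave 1 symbol for 20393, several for 691 and none for 1606. The gene IDs of 20364 matched RefSeq (GRCm38.p6). Signals were raised to the floor and a gene took its brightest probe set (pandas 2.3.3, numpy 2.4.6). The steps were tested on simulated data. Values were given for members at least 1.5-fold apart, for the extremes of each role and for members with disagreeing probe sets; other lists followed a like rule. Genes named beyond it were chosen after their values were seen. Members and lists were chosen with earlier results of these data known. Alternatives covered scaling, the floor, a pseudocount, the use of probe sets and the size rule.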

Additional observations from a re-analysis of the deposited data

How the results depend on the processing

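Of 263 member log2 ratios recomputed under 8 alternatives, 257 moved by less than the technical SD of 0.22, 6 moved by more and none of the members at least 1.5-fold apart turned sign. The 6 were Slc2a3 (0.30), Slc2a4 (-0.36), Pfkl (0.07), Aldoc (0.33) and Egln3 (0.22) with probe sets averaged, and Aldoc (1.07) with the floor at the 20th percentile. Averaging takes in probe sets below the floor, whose ratio is 0. It gave a median of -0.15 for glycolysis and transporter genes and -0.020 for the further hypoxia targets, and 2 members at least 1.5-fold higher in place of 5. Leaving out probe sets with an _s_at, _x_at or _a_at suffix kept 23 measured members, of which 2 were at least 1.5-fold higher. It gave medians of 0.16 for pyruvate fate (3 genes), -0.36 for pentose phosphate (1 gene), 0.33 for the further glycolysis genes, -0.041 for glycogen and gluconeogenesis and -0.13 for the further hypoxia targets. The median of the hypoxia response genes was 0.35 with the floor at the 20th percentile and 0.15 at the 60th. That of the further glycolysis genes was -0.16 with the floor at the 60th percentile and -0.020 with a pseudocount of 16. With the floor at the 20th percentile 1 member, Aldoc, was at least 2-fold higher. The cause of these shifts was not tested beyond the genes and probe sets each setting keeps. No paired analysis was possible because each group has 1 array. The number of arrays, and signals near the floor for Aldoc and Egln3, limit what can be read.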
